A study of Fragaria x ananassa with 28 samples.

Results

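Aquaporins are membrane channels for water and small neutral solutes, and 210 of the 301219 assembled strawberry transcripts carried a Swiss-Prot description containing the word aquaporin. The 61 of them that reached 1 RPKM (read count divided by transcript length in kilobases and scaled to the library's read total) in at least 2 libraries were followed across ripening, of 99136 transcripts that passed the same limit. The 61 comprised 26 of 38 plasma membrane intrinsic proteins (PIP), 14 of 76 tonoplast intrinsic proteins (TIP), 8 of 74 nodulin 26-like intrinsic proteins (NIP) and 13 of 22 small basic intrinsic proteins (SIP). They belonged to 44 assembly components, so that some members are forms of 1 component and share its reads.

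In plants, water crosses cell membranes largely through aquaporins. PIPs lie in the plasma membrane, where PIP2 proteins are efficient water channels and many PIP1 proteins reach the membrane together with a PIP2 partner, and TIPs lie in the tonoplast, the membrane around the vacuole that fills most of a fleshy fruit cell. NIPs pass small uncharged solutes such as glycerol, boric acid and silicic acid, and SIPs are found in the endoplasmic reticulum in Arabidopsis.

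The tissue was the fleshy receptacle of the octaploid strawberry Fragaria × ananassa 'Toyonoka', grown in a greenhouse. The labels give 14 h of light and 10 h of dark for every sample. Fruit taken 2 weeks after flowering received 100 µL of solution through the fruit stalk: distilled water, 1 µM abscisic acid (ABA, a plant hormone known to promote strawberry ripening) or 100 µM nordihydroguaiaretic acid (NDGA, named in the labels as a blocker of ABA synthesis and known also as a lipoxygenase inhibitor). Water fruit were sampled at days 0, 5 and 8 and ABA and NDGA fruit at days 5 and 8, which makes 7 groups of 2 mRNA libraries each. All groups were injected, day 0 included per the labels, so that none held untouched fruit. RNA of 10 fruits per group was pooled in equal amounts. Separate pools for the 2 libraries are not stated, so p-values reflect library-to-library spread alone, and that spread may be technical.

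Libraries held 7356752 to 9035037 counted reads, and each was closest to its own replicate among the 14. Markers of the receptacle's ripening (54 transcripts for red pigment regulators, anthocyanidin synthase and expansins) summed to 1308 to 1422 RPKM at day 0. In water they summed to 2030.9 to 2122 at day 5 and 3077 to 3377 at day 8. With ABA the sums were 2832 to 2969.6 at day 5 and 2431 to 2539 at day 8. With NDGA the sums were 1977 to 2030.4 at day 5 and 1904 to 1946 at day 8. Markers of the achenes, the dry fruits that hold the seeds (69 transcripts for storage proteins and oleosins), summed to 19769 to 21825 RPKM at day 0, 5060 to 5181 in water at day 5, 232 in both libraries of water at day 8, and 75.7 to 169.7 in the ABA and NDGA libraries. Between 2 and 5 of the 69 were at 0 at day 0, and 29 to 40 in the ABA and NDGA libraries. Xylem markers (118 transcripts) ran from 1875 to 1911 RPKM at day 0 down to 798 to 875 with ABA at day 8. In such bulk tissue, fewer cells of a type and less RNA per cell cannot be told apart.

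Names below are those of the best Swiss-Prot match, mostly from Arabidopsis, rice and maize, not proof of the same gene, and each transcript is given with its assembly number because several share a name. Lengths ran from 241 to 3887 bases with a median of 1051, and 17 members were shorter than 600 bases, 11 of them PIPs. The other 149 transcripts of the rule took 0.0190% of the aquaporin signal together, and 121 of them were at 0 in every library. Of 44 transcripts named NIP6-1 and 39 named TIP3-2, 1 each was reported, and none of 17 named NIP5-1, 8 named TIP4-1 or 4 named TIP1-3 was. Just inside the limit lay PIP2-6 comp133416_c0_seq1 and SIP1-2 comp98658_c0_seq5, whose second-highest libraries held 1.44 and 1.70 RPKM, and just outside lay TIP1-3 comp88338_c0_seq2 and NIP1-1 comp96820_c1_seq1 with 0.979 and 0.802 RPKM. Counting error was large for such members and small for abundant ones: at these depths 1 read on 1 kb was worth 0.111 to 0.136 RPKM.

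Plasma membrane aquaporins carried most of the signal, and their sum was higher at day 5 than at day 8 under every treatment. In water, PIP transcripts summed to 9519 ± 331 RPKM at day 0, 16397 ± 492 at day 5 and 10538 ± 6.29 at day 8 (mean ± SD, n = 2 libraries in every group). ABA fruit held 15076 ± 687 at day 5 and 9349 ± 4.77 at day 8, and NDGA fruit 16129 ± 151 and 9856 ± 58.8. The libraries of day 5 lay above those of days 0 and 8 without overlap.

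TIP sums stood apart by treatment. They were 3183 ± 214, 3283 ± 239 and 2049.9 ± 106 RPKM in water at days 0, 5 and 8, 2161 ± 211 and 1369.6 ± 47.9 with ABA, and 3612 ± 45.6 and 2531 ± 33.6 with NDGA. At both days the ABA libraries lay below the water libraries and the NDGA libraries above them, and at day 5 the NDGA and water ranges were 3580.2 to 3645 and 3115 to 3452 RPKM. These sums came mainly from TIP1-1 comp103281_c1_seq1 and TIP2-1 comp100164_c0_seq13, which averaged 2090 and 386 RPKM, with the next TIP at 41.5. The class did not move as a whole. Of the 14 TIPs, the estimate for ABA against water was higher for 4 and lower for 10 at day 5, and 7 and 7 at day 8. For NDGA it was higher for 7 and lower for 7 at day 5, and 10 and 4 at day 8.

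NIP sums were small but spread the widest. They were 13.7 ± 4.06, 23.5 ± 4.37 and 205 ± 13.7 RPKM in water at days 0, 5 and 8, 51.3 ± 4.65 and 121 ± 1.71 with ABA, and 14.1 ± 2.96 and 19.3 ± 0.694 with NDGA. SIP sums stayed between group means of 93.0 ± 4.13 (water, day 0) and 140.0 ± 11.6 RPKM (water, day 8), and several of their groups overlapped. All aquaporins together made up 0.986% (ABA, day 8) to 1.81% (water, day 5) of all RPKM as group means, and the 3 most abundant members made up 52.4% of that, the 10 most abundant 87.6%. These sums were compared without a test.

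**Figure D1:**
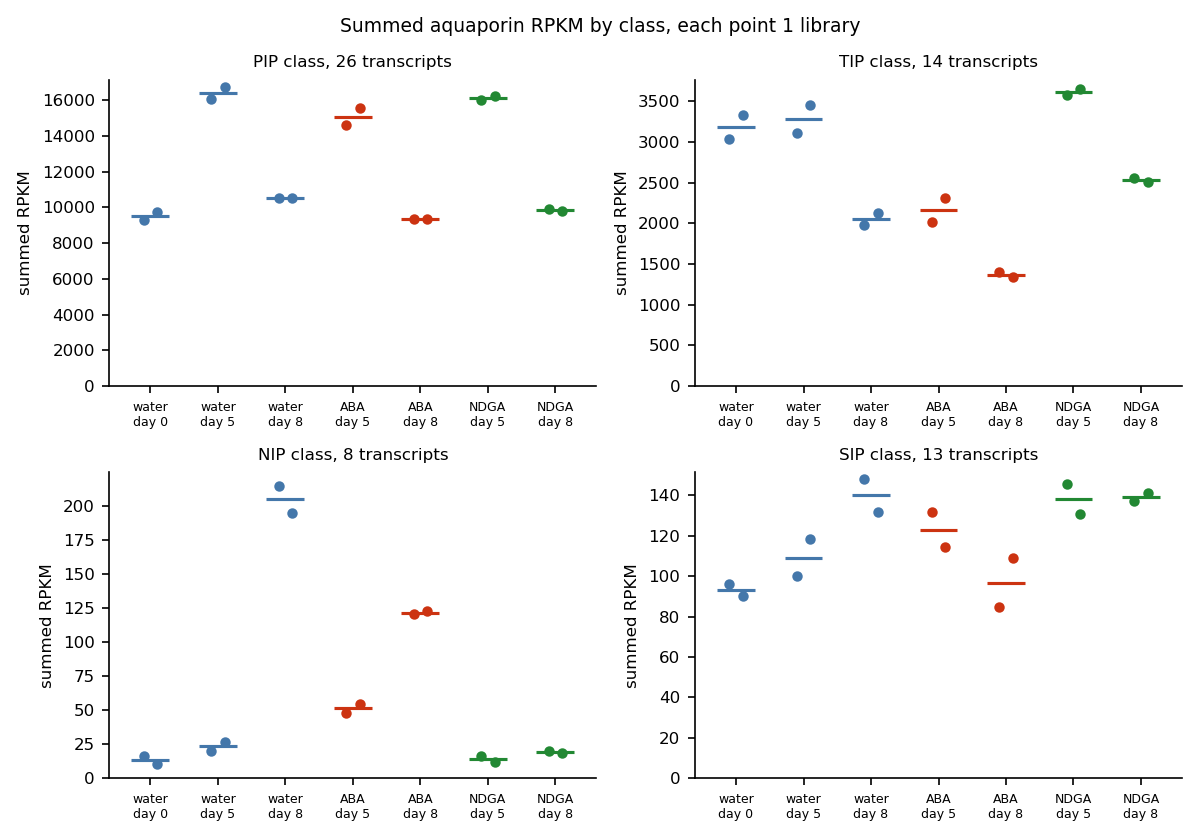
Summed RPKM of the reported aquaporins of each class (vertical axis, linear, from 0) in the 7 groups (horizontal axis); each point is 1 of 2 libraries and each line the group mean. PIP sums are higher at day 5 than at day 8 under every treatment, and NIP sums reach 205 RPKM in water at day 8 while both NDGA groups stay at 19.3 or below.

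During ripening in water, aquaporins passed the test often, mostly upward between days 0 and 5 and downward between days 5 and 8. Between days 0 and 5, 20 of the 61 rose and 10 fell (limma on log2(RPKM + 1), Benjamini-Hochberg adjusted p below 0.05). Of all tested transcripts 12.9% were called, 4.98% higher and 7.90% lower. This share and the background shares below were not matched for abundance, and counting error is smaller for abundant transcripts. The median log2 change was 0.20 against -0.03 for all tested. From day 5 to day 8, 9 rose and 20 fell against a background of 4.67% (2.89% higher, 1.78% lower), with medians of -0.23 and 0.04. Day 8 against day 0 gave 13 higher and 13 lower against 10.6% (4.87% higher, 5.68% lower), with medians of 0.07 and 0.00. By class, 16 of 26 PIPs rose and 6 fell from day 0 to day 5, and 2 rose and 15 fell from day 5 to day 8. Of 14 TIPs, 2 rose and 5 fell from day 5 to day 8, and 4 of 8 NIPs rose.

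ABA fruit were set against water fruit of the same day. At day 5, 3 aquaporins were higher and 6 lower, against a background of 2.16% called (1.21% higher, 0.956% lower), and the medians were 0.07 for aquaporins and 0.00 for all tested. At day 8, 9 were higher and 15 lower against 13.3% (4.30% higher, 8.98% lower). The medians were -0.36 and -0.20, so that the scale itself lay lower by 0.20 (log2) for the median transcript. After quantile normalization that shift was -0.02, 11 aquaporins were higher and 14 lower, and no call on a member named by the rule changed direction. The lower calls at day 8 held 9 PIPs, 2 TIPs, 2 NIPs and 2 SIPs, and the higher ones 5 PIPs and 4 TIPs. The size of the ABA difference itself changed between the days for 17 of the 61 (8 moving up, 9 down), against 3.69% of all tested (1.15% up, 2.54% down).

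NDGA fruit differed from the same water groups in 9 aquaporins at day 5, 4 higher and 5 lower, against a background of 2.03% (1.23% higher, 0.802% lower). At day 8 they differed in 13, 5 higher and 8 lower, against 2.18% (0.705% higher, 1.48% lower). The medians were 0.01 and 0.08 against 0.01 and 0.00 for all tested. The difference changed between the days for 10 members, 3 up and 7 down, against 2.65% of all tested (0.857% up, 1.79% down). As ABA and NDGA were compared with the same water libraries, their values are given side by side below and no overlap of their calls is drawn.

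Over the 7 comparisons, 45 of the 61 were called at least once: 24 of 26 PIPs, 11 of 14 TIPs, 6 of 8 NIPs and 4 of 13 SIPs, where 25.3% of all tested transcripts were. These calls lean on the spread shared by all 7 groups. A fit of the 2 compared groups alone, with 2 libraries each, called 7, 2 and 5 aquaporins in the water comparisons in the order given above, 0 and 7 for ABA at days 5 and 8 and 0 for NDGA at both days, where 14, 19 and 20 had an unadjusted p below 0.05 in the 3 comparisons with 0 calls. Over all 99136 tested transcripts that fit called 998, 45 and 823 in water, 10 and 1135 for ABA, and 22 and 0 for NDGA. A limma voom fit of all groups on whole reads recovered from the RPKM called 14, 12 and 10 aquaporins in those 3. Without replicate 1 of NDGA at day 5 the count of 9 for NDGA at day 5 came to 3, and without replicate 1 or 2 of water at day 5 to 5 or 6. For NDGA at day 8 the count of 13 came to 7 without replicate 2 of water at day 8, and the 29 called in water between days 5 and 8 came to 19 without that library.

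**Figure D2:**
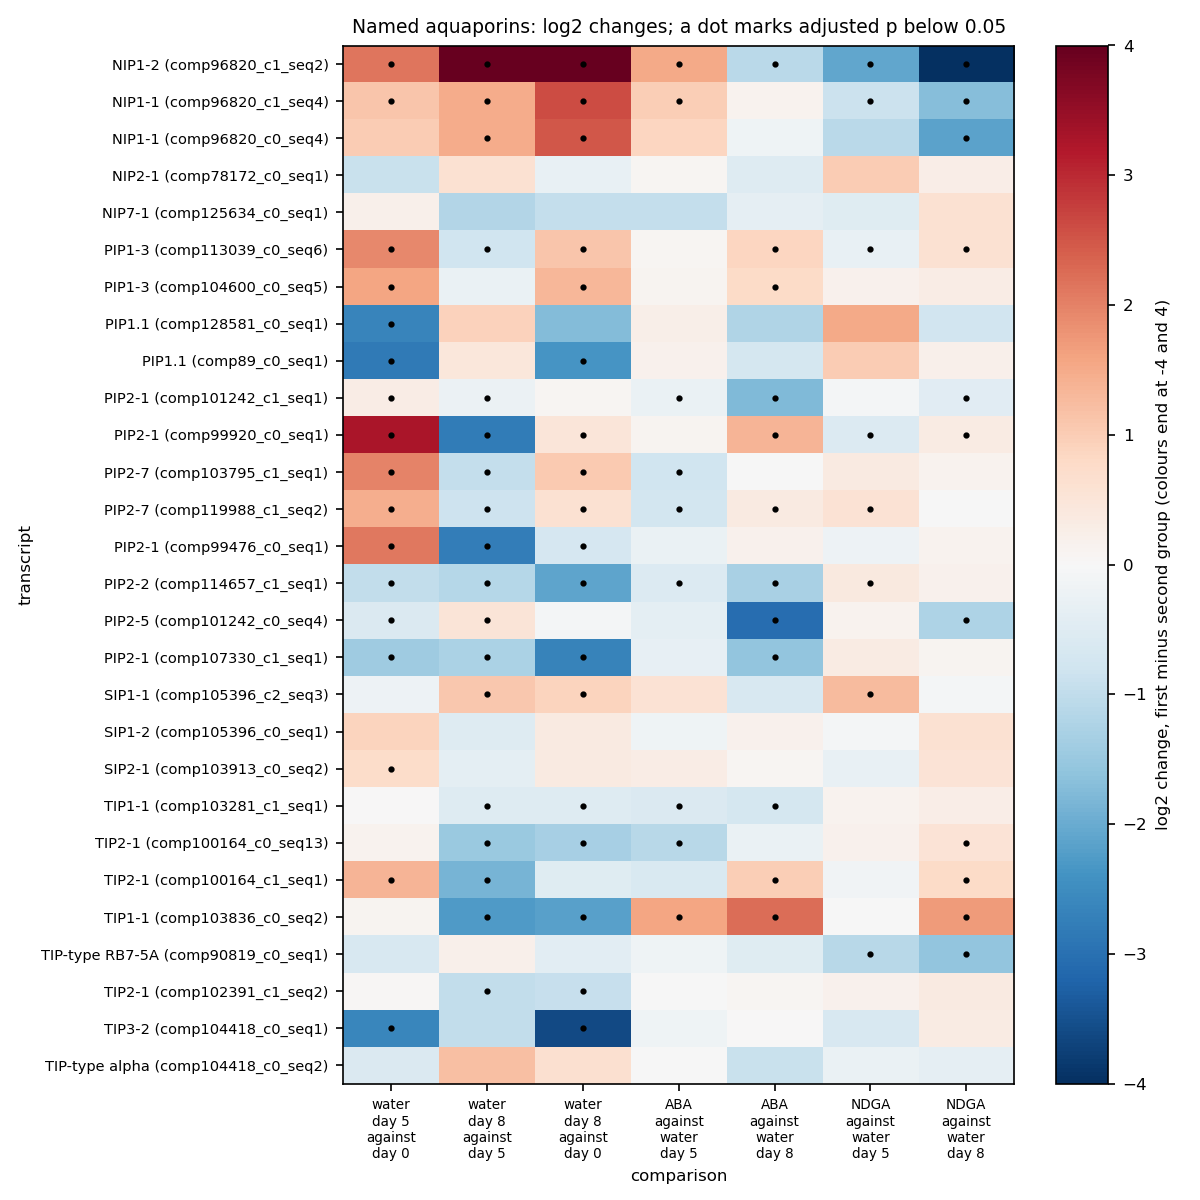
Log2 changes (colour, ending at -4 and 4) of the 28 aquaporins described in full (rows) in the 7 comparisons (columns), with a dot where adjusted p is below 0.05. NIP1-2 comp96820_c1_seq2 carries a dot in all 7 columns, and PIP2-1 comp99920_c0_seq1 turns from 3.28 for water day 5 against day 0 to -2.81 for day 8 against day 5.

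PIP2 proteins, the main water channels of the plasma membrane, held large changes among abundant members, and they did not move as a block. PIP2-1 comp99920_c0_seq1 held 202 and 203 RPKM in the libraries of water at day 0, 1974 and 1967 at day 5, and 282 and 279.6 at day 8. With ABA it held 2101 and 2164 at day 5 and 715 and 739.8 at day 8, and with NDGA 1354 and 1343 at day 5 and 369.8 and 341 at day 8. So every day 5 library lay above every library of days 0 and 8, and at day 8 both ABA libraries lay above all others.

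This PIP2-1 rose 9.75-fold in mean RPKM from day 0 to day 5 (log2 change 3.28 ± 0.06 SE, adjusted p = 1.61e-12) and was 7.01-fold lower at day 8 than at day 5 (-2.81 ± 0.06, adjusted p = 2.40e-11). ABA fruit were 2.59-fold above water at day 8 (1.37 ± 0.06, adjusted p = 2.64e-09) and not called at day 5 (0.11 ± 0.06, adjusted p = 0.437), and the change of the ABA difference between the days passed the test (1.26 ± 0.08, adjusted p = 1.17e-06). NDGA fruit were lower at day 5 (-0.55 ± 0.06, adjusted p = 8.62e-05) and higher at day 8 (0.34 ± 0.06, adjusted p = 0.00559). The last call was lost without replicate 2 of water at day 8 (adjusted p = 0.0534) or replicate 1 of NDGA at day 8 (adjusted p = 0.0871).

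A separate transcript of the same name, PIP2-1 comp99476_c0_seq1, was higher at day 5 than at day 8 under all 3 treatments, with day 0 sampled in water alone. It held 247 and 267 RPKM at day 0, 1075 and 1126 in water at day 5 and 155 and 165 at day 8, with 877 and 946, then 179 and 183 under ABA and 946 and 945, then 179 and 171 under NDGA. From day 0 to day 5 it rose 4.29-fold (2.10 ± 0.07, adjusted p = 6.68e-10), and at day 8 it was 6.88-fold lower than at day 5 (-2.78 ± 0.07, adjusted p = 1.38e-10). None of its 4 comparisons of ABA or NDGA with water was called, with adjusted p of 0.0706 for ABA at day 5, 0.121 for ABA at day 8 and 0.169 for NDGA at day 5.

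PIP2-1 comp101242_c1_seq1, the most abundant PIP2 at 16.1% of the aquaporin signal, was lowest with ABA at day 8. Its libraries held 2615 and 2604 RPKM at day 0, 3166 and 3265 at day 5 and 2778 and 2721 at day 8 in water. With ABA it held 2619 and 2673 at day 5 and 820.0 and 785 at day 8, and under NDGA 3083 and 3041 at day 5 and 2036 and 1954 at day 8. Both ABA libraries of day 8 lay far below the next lowest library, which was NDGA replicate 2 of day 8.

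ABA at day 8 was 3.43-fold below water (-1.78 ± 0.04, adjusted p = 1.84e-11), which was further below than at day 5 (-0.28 ± 0.04, adjusted p = 0.00230), and the change between the days passed (-1.49 ± 0.06, adjusted p = 2.28e-08). NDGA at day 8 was also lower (-0.46 ± 0.04, adjusted p = 5.22e-05). The fall in water from day 5 to day 8 (-0.23 ± 0.04, adjusted p = 0.00695) was lost without replicate 2 of water at day 5 (adjusted p = 0.0854) or at day 8 (adjusted p = 0.0710).

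PIP2-5 comp101242_c0_seq4, a partial transcript of 721 bases from the neighbouring component, was also low in those fruit. It held 591 and 614 RPKM at day 0, 423 and 379 at day 5 and 577 and 571 at day 8 in water, against 306 and 305, then 64.8 and 73.6 with ABA and 433 and 443, then 271 and 217 with NDGA. ABA at day 8 was 8.29-fold below water (-3.04 ± 0.10, adjusted p = 3.78e-10) and NDGA at day 8 was 2.35-fold below (-1.24 ± 0.10, adjusted p = 1.98e-05).

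Its changes within water depended on the form counted. The form fell from day 0 to day 5 (-0.59 ± 0.10, adjusted p = 0.00149) and rose from day 5 to day 8 (0.52 ± 0.10, adjusted p = 0.00846). With the 5 forms of the component summed these became -0.04 (adjusted p = 0.849) and -0.12 (adjusted p = 0.594), and the rise was also lost without replicate 2 of water at day 5 (adjusted p = 0.107) or either library of water at day 8 (adjusted p = 0.0666 and 0.0605). The form made up 56.6% of the component's signal, and a PIP2-1 form that made up 23.9% moved the other way, from 157 RPKM at day 0 to 283 at day 5 and 65.2 at day 8. A longer PIP2-5 form of 1056 bases, comp101242_c0_seq5, averaged 115 RPKM at day 0, 164 at day 5 and 146 at day 8 in water. At day 8 it averaged 67.7 RPKM with ABA and 126 with NDGA, smaller steps from water than those of the form above.

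PIP2-2 comp114657_c1_seq1 was highest at day 0 and went down with time under every treatment. It held 1066 and 1092 RPKM at day 0, 546 and 542 at day 5 and 244 and 253 at day 8 in water. ABA libraries held 364 and 377 at day 5 and 105 and 98.1 at day 8, and under NDGA 734 and 697 at day 5 and 279 and 279 at day 8. At each day the ABA libraries lay below and the NDGA libraries above those of water.

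The fall from day 0 to day 8 in water was 4.34-fold (-2.11 ± 0.06, adjusted p = 2.64e-10). ABA was lower than water at day 5 (-0.55 ± 0.06, adjusted p = 0.000248) and further below at day 8 (-1.29 ± 0.06, adjusted p = 2.00e-08; change between days -0.73 ± 0.09, adjusted p = 0.000406). NDGA was higher at day 5 (0.39 ± 0.06, adjusted p = 0.00432) and not called at day 8 (0.17 ± 0.06, adjusted p = 0.259), and the day 5 call was lost without replicate 1 of NDGA at day 5 (adjusted p = 0.0757) or replicate 2 of water at day 5 (adjusted p = 0.0516). A 695-base PIP2-1, comp107330_c1_seq1, fell in water from 286 and 336 RPKM at day 0 to 45.3 and 50.5 at day 8 (-2.67 ± 0.16, adjusted p = 1.74e-07). With ABA it held 18.9 and 12.7 at day 8, 3.03-fold below water (-1.57 ± 0.16, adjusted p = 2.33e-05). The summed xylem markers, of which 5 to 38 of 118 were at 0, went the same way, at 1875 to 1911 RPKM at day 0, 1014.9 to 1119 in water at day 8 and 798 to 875 with ABA at day 8, and their part in these falls was not tested.

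The 2 abundant PIP2-7 transcripts, whose Arabidopsis namesake is a plasma membrane water channel, were highest with NDGA at day 5. PIP2-7 comp119988_c1_seq2 held 324 and 311 RPKM at day 0, 852 and 893 at day 5 and 494 and 478 at day 8 in water. In ABA fruit it stood at 503 and 538 at day 5 and 635 and 619.8 at day 8, and under NDGA 1294 and 1323 at day 5 and 489 and 469 at day 8. At day 5 the 3 treatments did not overlap, with NDGA highest and ABA lowest, while at day 8 ABA was highest and NDGA and water overlapped.

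NDGA was 1.5-fold above water at day 5 (0.58 ± 0.06, adjusted p = 8.62e-05) and its difference changed by day 8 (-0.60 ± 0.08, adjusted p = 0.00132). ABA was below water at day 5 (-0.74 ± 0.06, adjusted p = 7.89e-06) and above it at day 8 (0.37 ± 0.06, adjusted p = 0.000997; change between days 1.11 ± 0.08, adjusted p = 6.66e-06). PIP2-7 comp103795_c1_seq1 rose 3.97-fold in water from day 0 to day 5, from 336 and 299 to 1242 and 1280.5 RPKM (1.99 ± 0.09, adjusted p = 9.26e-09), and was lower with ABA at day 5, at 728 and 709 (-0.81 ± 0.09, adjusted p = 0.000159). With NDGA at day 5 it held 1655 and 1572 RPKM, above both water libraries, but was not called (0.36 ± 0.09, adjusted p = 0.0638).

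**Figure D3:**
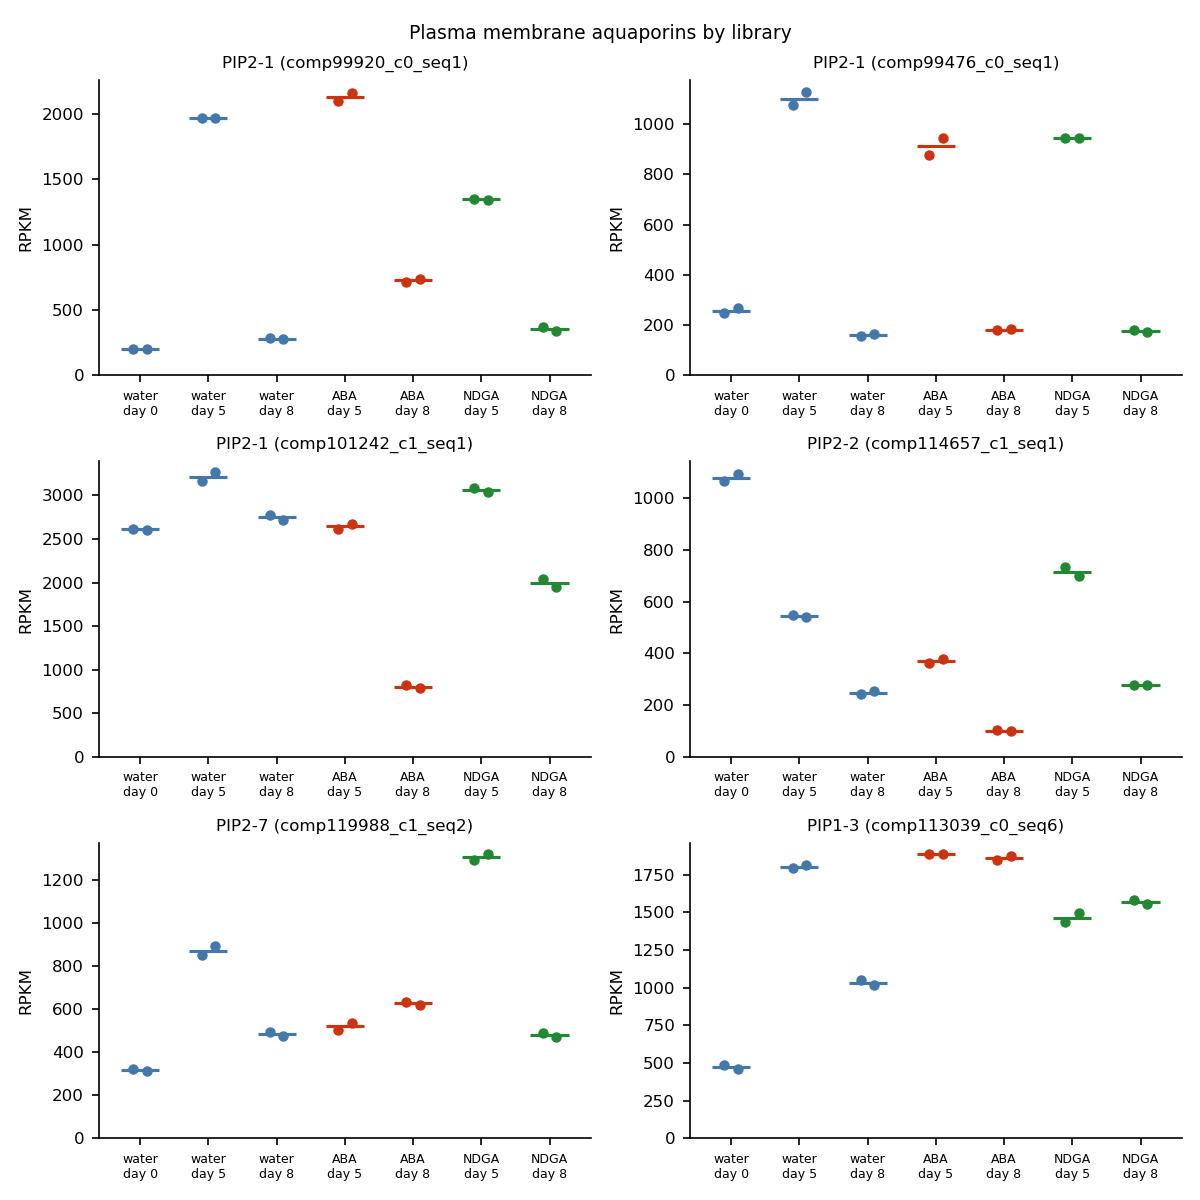
RPKM (vertical axes, linear, from 0) of 6 plasma membrane aquaporins in the 7 groups (horizontal axes); each point is 1 of 2 libraries and each line the group mean. The day 5 peak of PIP2-1 comp99920_c0_seq1 at 1970.5 RPKM in water, the 803 RPKM of PIP2-1 comp101242_c1_seq1 with ABA at day 8 and the fall of PIP2-2 from 1079 RPKM at day 0 show that the members did not share 1 course.

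The most abundant aquaporin, described below, carries no PIP1 number and was not counted among PIP1 members. Whether it belongs to them was not tested. Among the members whose description gives a PIP1 number, PIP1-3 comp113039_c0_seq6 accounted for nearly all of the signal. It held 489 and 462 RPKM at day 0, 1794 and 1811 at day 5 and 1049 and 1018 at day 8 in water. Under ABA the libraries held 1888 and 1888 at day 5 and 1847 and 1875 at day 8, and under NDGA 1434 and 1494 at day 5 and 1581 and 1552 at day 8. Both libraries of ABA and of NDGA at day 8 lay above both of water at day 8, which had dropped from its day 5 level.

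From day 0 to day 5 in water this PIP1-3 rose 3.79-fold (1.92 ± 0.05, adjusted p = 5.31e-11) and then fell (-0.80 ± 0.05, adjusted p = 3.54e-07). ABA was not called at day 5 (0.07 ± 0.05, adjusted p = 0.648) and was 1.80-fold above water at day 8 (0.85 ± 0.05, adjusted p = 6.85e-08). NDGA was below water at day 5 (-0.30 ± 0.05, adjusted p = 0.00360) and above it at day 8 (0.60 ± 0.05, adjusted p = 1.77e-05), and its day 5 call was lost without replicate 1 of NDGA at day 5 (adjusted p = 0.0696). The change of the difference between the days passed for both ABA (0.78 ± 0.07, adjusted p = 1.85e-05) and NDGA (0.90 ± 0.07, adjusted p = 5.94e-06).

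A second PIP1-3, comp104600_c0_seq5, rose 3.09-fold from day 0 to day 5 in water, from 23.0 and 26.7 to 72.1 and 81.3 RPKM (1.59 ± 0.14, adjusted p = 4.80e-06), and was higher with ABA at day 8, at 101 and 116 against 61.2 and 65.9 (0.76 ± 0.14, adjusted p = 0.00203). PIP1-2 comp113039_c0_seq7, a form of the first PIP1-3's own component named here after its values were seen, took a different course. It held 16.3 and 15.3 RPKM at day 0, 17.5 and 30.1 at day 5 and 44.6 and 56.0 at day 8 in water, and with NDGA 66.0 and 62.3 at day 5 and 20.6 and 23.1 at day 8. It was above water at day 5 (1.44 ± 0.24, adjusted p = 0.00462) and below it at day 8 (-1.16 ± 0.24, adjusted p = 0.0206), calls lost without replicate 1 of water or of NDGA at day 5 (adjusted p = 0.0624 and 0.0619) and without any 1 of the 4 libraries of day 8 (adjusted p from 0.0639 to 0.183). As 2.20% of its component it cannot be read apart from the dominant form with certainty, and the summed component moved the other way, at -0.25 and 0.55.

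Partial PIP1.1 transcripts, matched to broad bean, were low after day 0. PIP1.1 comp89_c0_seq1 (279 bases) held 8.33 and 6.49 RPKM at day 0 and 0.415 and 0 at day 5 in water (-2.81 ± 0.39, adjusted p = 0.000295), 0 in both libraries of ABA at day 8, and 1.22 and 1.64 with NDGA at day 5. PIP1.1 comp128581_c0_seq1 (325 bases) held 10.2 and 9.66 at day 0 against 2.14 and 0 (-2.63 ± 0.69, adjusted p = 0.0235), a call lost without either library of day 0 (adjusted p = 0.129 and 0.126) or replicate 2 of water at day 5 (adjusted p = 0.210), under pseudocount 0.1 (0.130) and with no filter on low values (0.0568). PIP1.1 comp128581_c0_seq1 held 2.80 and 5.62 RPKM with NDGA at day 5, 1.08 and 4.29 in water at day 8 and at most 2.86 in the other later libraries. These levels rest on at most 30 reads in a library. Both transcripts were highest in the same 2 libraries as the achene markers, whose part was not tested. At day 5, NDGA lay above water for both transcripts and below water for the markers.

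The single most abundant aquaporin was PIP-type 7a comp105193_c1_seq1, matched to the pea protein 7a first described as turgor-responsive, with 22.6% of the aquaporin signal. It is named after its values were seen, since its description gives no PIP1 or PIP2 number. It held 2407 and 2626 RPKM at day 0, 3413 and 3606 at day 5 and 3494 and 3564 at day 8 in water. With ABA it held 3782 and 4320.2 at day 5 and 3728 and 3804 at day 8, and under NDGA 3338 and 3430.1 at day 5 and 3174 and 3309 at day 8. It rose from day 0 to day 5 (0.48 ± 0.06, adjusted p = 0.000139) and was as high at day 8 (day 8 against day 0, 0.49 ± 0.06, adjusted p = 0.000121). No treatment passed at either day, with changes of 0.20 ± 0.06 and 0.09 ± 0.06 for ABA and -0.05 ± 0.06 and -0.12 ± 0.06 for NDGA. Another transcript of that name, comp105193_c0_seq1 (1474 bases), averaged 68.8 RPKM and did not share this rise. In water it held 65.3 and 130.6 RPKM at day 0, 48.7 and 74.5 at day 5 and 39.2 and 66.5 at day 8. Its change from day 0 to day 5 was not called (-0.61 ± 0.38, adjusted p = 0.362).

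Of the pairwise calls on the named PIP members, the fit of the compared groups alone kept the rise from day 0 to day 5 of both PIP1-3, PIP2-1 comp99920_c0_seq1 and comp99476_c0_seq1 and both PIP2-7 (adjusted p from 0.0348 to 0.0480). It also kept the day 5 to day 8 falls of those 2 PIP2-1 transcripts (adjusted p = 0.0417 for each), the day 0 to day 8 falls of PIP2-2 (0.0306) and PIP2-1 comp107330_c1_seq1 (0.0349), and ABA at day 8 for PIP2-1 comp101242_c1_seq1 (0.0347), PIP2-1 comp99920_c0_seq1 (0.0350), PIP2-2 (0.0388) and PIP2-5 (0.0269). Every other pairwise PIP call above was lost there. The changes between the days given above were kept (adjusted p up to 0.0186). A voom fit on recovered reads lost all 5 pairwise calls on PIP2-1 comp101242_c1_seq1 (adjusted p from 0.353 to 0.984), its change of the ABA difference between the days (0.985) and the call for NDGA at day 8 on PIP2-1 comp99920_c0_seq1 (0.433), and kept them with the weights of the most abundant transcripts capped, a setting chosen after seeing the data. Before capping, the weights of that fit reached 3.81e+17, against 173 at the 99th percentile of abundance.

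TIP1-1 comp103281_c1_seq1, matched to an Arabidopsis vacuolar channel for water and hydrogen peroxide, was the most abundant tonoplast member at 13.8% of the aquaporin signal and was lower with ABA at both days. It held 2324 and 2719.5 RPKM at day 0, 2380.0 and 2744 at day 5 and 1695 and 1857 at day 8 in water. ABA libraries held 1554 and 1859.8 at day 5 and 1086 and 1080.3 at day 8, and under NDGA 2784 and 2873 at day 5 and 2153 and 2144 at day 8. The NDGA libraries lay above and the ABA libraries below the water libraries at each day, without overlap.

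ABA fruit were 1.5-fold below water at day 5 (-0.59 ± 0.09, adjusted p = 0.00302) and 1.64-fold below at day 8 (-0.71 ± 0.09, adjusted p = 0.000158). NDGA was not called at day 5 (0.15 ± 0.09, adjusted p = 0.576) or day 8 (0.28 ± 0.09, adjusted p = 0.173). In water it was lower at day 8 than at day 5 (-0.53 ± 0.09, adjusted p = 0.00418) and day 0 (-0.50 ± 0.09, adjusted p = 0.00272). For this TIP1-1, 3 of the calls were lost without 1 library: ABA at day 5 without replicate 2 of water (adjusted p = 0.0612) or replicate 1 of ABA (0.0506), day 8 against day 5 without replicate 2 of day 5 (0.0699) or replicate 1 of day 8 (0.0603), and day 8 against day 0 without replicate 2 of day 0 (0.0585).

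TIP2-1 comp100164_c0_seq13, whose Arabidopsis namesake passes water and ammonia into the vacuole, showed the same order of treatments at day 5 with larger steps. It held 574 and 481 RPKM at day 0, 591 and 559.9 at day 5 and 215 and 199 at day 8 in water. In ABA fruit it stood at 273 and 262 at day 5 and 191 and 154 at day 8, and under NDGA 666 and 631 at day 5 and 319 and 282 at day 8. ABA libraries at day 5 lay between those of water at days 5 and 8. The xylem markers had the same order at day 5, at 939 to 947 RPKM with ABA, 1426 to 1451 in water and 1574 to 1586 with NDGA, and their part was not tested.

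In water the fall from day 5 to day 8 was 2.78-fold (-1.47 ± 0.11, adjusted p = 2.90e-06). ABA was 2.15-fold below water at day 5 (-1.10 ± 0.11, adjusted p = 6.49e-05), was not called at day 8 (-0.27 ± 0.11, adjusted p = 0.132), and its difference changed between the days (0.83 ± 0.15, adjusted p = 0.00828). NDGA was above water at day 8 (0.53 ± 0.11, adjusted p = 0.0214), a call lost without any 1 of the 4 libraries compared (adjusted p from 0.0575 to 0.204).

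A TIP2-1 of 701 bases, comp100164_c1_seq1, rose from day 0 to day 5 in water, from 30.5 and 22.2 to 68.0 and 69.2 RPKM (1.36 ± 0.18, adjusted p = 0.000228), and fell to 18.6 and 17.9 at day 8 (-1.85 ± 0.18, adjusted p = 4.04e-05). It was above water with ABA at day 8, at 45.1 and 30.6 (0.99 ± 0.18, adjusted p = 0.00253). Its call for NDGA at day 8 (0.77 ± 0.18, adjusted p = 0.0463) was lost under pseudocount 0.1 (adjusted p = 0.0632), with no filter on low values (0.0857), in voom fits (0.0789, or 0.0636 with capped weights) and without any 1 of 10 libraries, among them those of water and NDGA at day 8 (0.147 to 0.256). The third TIP2-1, comp102391_c1_seq2, was lower at day 8 than at day 5 in water (-0.98 ± 0.25, adjusted p = 0.0417) and at day 0 (-0.92 ± 0.25, adjusted p = 0.0318). The first call was lost without any 1 of 12 libraries (adjusted p from 0.0501 to 0.298) and with no filter (0.0581), and the second without any 1 of the 4 compared (0.0511 to 0.195).

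Against that pattern, TIP1-1 comp103836_c0_seq2 was highest with ABA. It held 28.4 and 29.0 RPKM at day 0, 30.6 and 32.1 at day 5 and 5.13 and 6.24 at day 8 in water. Under ABA the libraries held 91.0 and 103 at day 5 and 33.0 and 27.9 at day 8, and under NDGA 27.1 and 34.9 at day 5 and 18.9 and 22.6 at day 8. At day 8 the ABA and NDGA libraries all lay above both water libraries.

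ABA fruit were 3.08-fold above water at day 5 (1.59 ± 0.17, adjusted p = 0.000117) and 5.36-fold above at day 8 (2.23 ± 0.17, adjusted p = 1.23e-06), and NDGA fruit 3.65-fold above at day 8 (1.70 ± 0.17, adjusted p = 9.68e-05) and level with it at day 5 (-0.03 ± 0.17, adjusted p = 0.999). The form TIP1-2 comp103836_c0_seq1, named after its values were seen, was also above water with ABA at day 8, at 21.9 and 14.7 against 4.41 and 4.81 RPKM (1.76 ± 0.35, adjusted p = 0.00447, or 0.0597 without replicate 1 of ABA at day 8). Summed over the 3 forms of the component, ABA at day 8 came to -0.12 (adjusted p = 0.673) and none of the 5 pairwise calls on the TIP1-1 form remained, with adjusted p of 0.0870 to 0.861. In that sum 67.7% of the signal came from a form of 345 bases described as ubiquitin-conjugating enzyme E2 35, which is no aquaporin.

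TIP-type RB7-5A comp90819_c0_seq1, matched to a tobacco gene known from roots, was lowest in the NDGA libraries. It held 17.8 and 22.7 RPKM at day 0, 12.2 and 12.9 at day 5 and 13.1 and 16.7 at day 8 in water. With ABA it held 10.4 and 11.6 at day 5 and 9.48 and 11 at day 8, and under NDGA 5.23 and 5.43 at day 5 and 5.08 and 3.69 at day 8. All 4 NDGA libraries lay below the other 10. NDGA was 2.36-fold below water at day 5 (-1.10 ± 0.21, adjusted p = 0.0156) and 3.39-fold below at day 8 (-1.56 ± 0.21, adjusted p = 0.00140), and the day 5 call was lost without any 1 of the 4 libraries compared (adjusted p from 0.0891 to 0.128).

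TIP3 proteins line storage vacuoles of seeds in Arabidopsis, and TIP3-2 comp104418_c0_seq1 was the one member of that kind above 10 RPKM. It held 10.4 and 14.6 RPKM at day 0 and at most 1.29 in every later library, with 0 in 1 library each of water and ABA at day 8. It fell from day 0 to day 5 in water (-2.60 ± 0.35, adjusted p = 0.000276) and was lower at day 8 than at day 0 (-3.59 ± 0.35, adjusted p = 1.68e-05). The achene markers fell in the same libraries from at least 19769 to at most 5181 RPKM, and their part in the fall of TIP3-2 was not tested. At day 5 the markers summed to 5060 to 5181 RPKM in water and 140 to 156 with ABA. TIP3-2 held 1.10 and 1.29 RPKM in those water libraries and 1.10 and 0.839 in those of ABA, levels near the limit of 1 RPKM. The related TIP-type alpha comp104418_c0_seq2, a transcript of 315 bases, held 0 to 2.58 RPKM, at most 7 reads in a library, and was not called.

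Of the named TIP calls, a fit of the compared groups alone kept those of TIP1-1 comp103836_c0_seq2 for water day 8 against day 0 (adjusted p = 0.0421) and for ABA at day 8 (0.0479), and lost the other pairwise ones. In the same fit the change of the ABA difference between the days for TIP2-1 comp100164_c0_seq13 was also lost (adjusted p = 0.0510). The voom fit on recovered reads lost that of TIP1-1 comp103281_c1_seq1 for ABA at day 8 (0.189), which the capped fit kept.

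**Figure D4:**
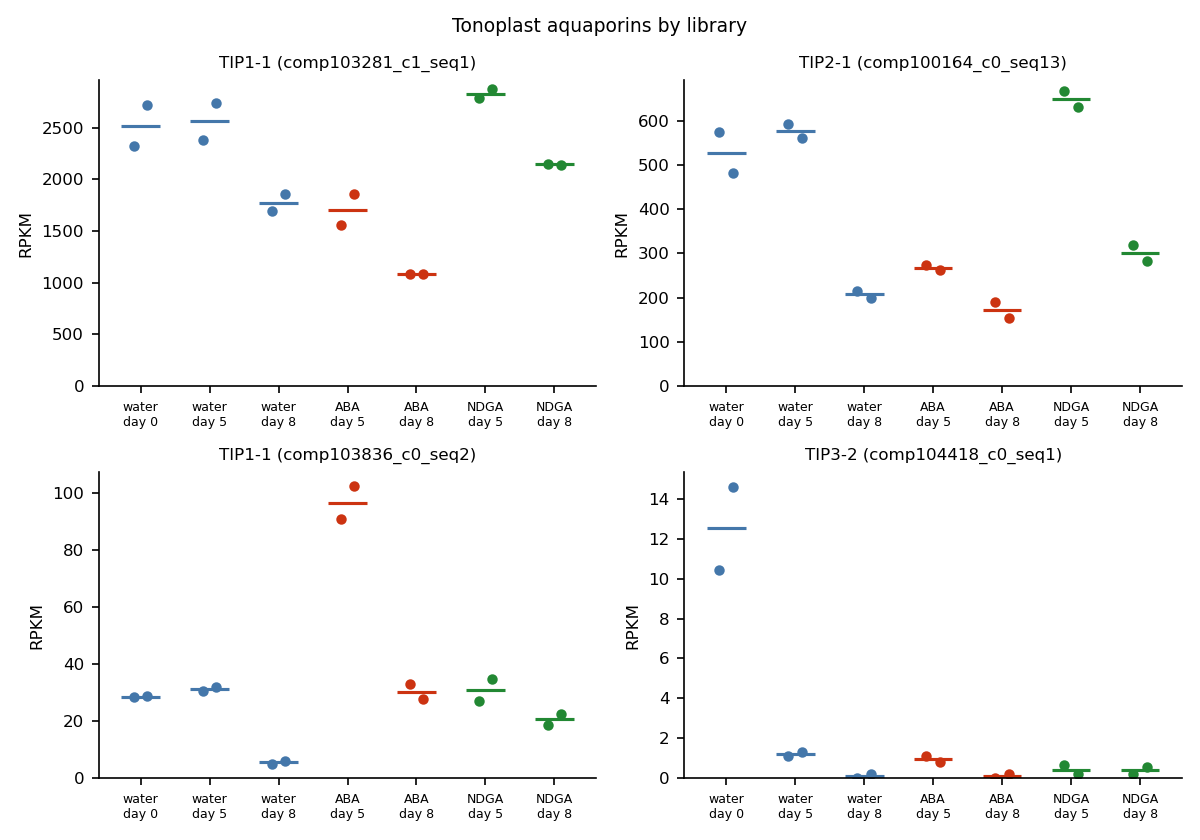
RPKM (vertical axes, linear, from 0) of 4 tonoplast aquaporins in the 7 groups (horizontal axes); each point is 1 of 2 libraries and each line the group mean. The abundant TIP1-1 and TIP2-1 are lowest with ABA at day 8, TIP1-1 comp103836_c0_seq2 peaks at 96.8 RPKM with ABA at day 5, and TIP3-2 is above 10 RPKM at day 0 only.

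NIP1-2 comp96820_c1_seq2, whose Arabidopsis namesake carries aluminium-malate complexes, changed more than any other named aquaporin and was called in all 7 comparisons. In water it held 1.03 and 0.160 RPKM at day 0, 5.06 and 6.58 at day 5, and 165 and 142 at day 8. With ABA it held 18.4 and 18.2 at day 5 and 74.3 and 68.8 at day 8. With NDGA it held 0.604 and 0.605 at day 5 and 4.78 and 5.39 at day 8.

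The groups did not overlap apart from day 0, whose libraries lay on both sides of NDGA at day 5, and NDGA at day 8, which touched water at day 5. Reads behind these values ran from 2 in a library to 2121. From day 5 to day 8 in water NIP1-2 rose 26.4-fold (4.51 ± 0.25, adjusted p = 1.76e-07), and from day 0 to day 8 by 6.65 ± 0.25 on the log2(RPKM + 1) scale (adjusted p = 1.88e-09). Low levels are compressed on that scale, so the last value is smaller than the ratio of the means.

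ABA fruit were 3.14-fold above water at day 5 (1.51 ± 0.25, adjusted p = 0.00449) and 2.15-fold below it at day 8 (-1.09 ± 0.25, adjusted p = 0.00986), and the change between the days passed (-2.60 ± 0.35, adjusted p = 0.000776). NDGA fruit were 9.63-fold below water at day 5 (-2.08 ± 0.25, adjusted p = 0.000327) and 30.2-fold below at day 8 (-4.66 ± 0.25, adjusted p = 4.66e-07), with a change between the days of -2.59 ± 0.35 (adjusted p = 0.00101).

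The ABA calls were less firm than the others. The one at day 5 was lost without replicate 1 of water at day 5 (adjusted p = 0.0633), the one at day 8 without replicate 1 of water (0.0892) or either library of ABA at day 8 (0.0502 and 0.0740), and both under pseudocount 0.1 (0.143 and 0.173). The change of the NDGA difference was lost under pseudocount 0.1 (0.251) and in the voom fits with plain (0.251) and capped weights (0.183), and that of the ABA difference under pseudocount 0.1 (0.0546).

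The 2 abundant NIP1-1 forms, matched to maize, had changes of the same sign in water and with NDGA, at smaller size. NIP1-1 comp96820_c1_seq4 held 4.07 and 4.44 RPKM at day 0, 9.37 and 11.3 at day 5 and 31.3 and 30.5 at day 8 in water. ABA libraries held 19.9 and 23.1 at day 5 and 30.8 and 37.1 at day 8, and under NDGA 5.38 and 4.96 at day 5 and 9.21 and 8.36 at day 8. At day 8 the ABA and water ranges overlapped and the NDGA libraries lay below both.

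In water this NIP1-1 rose 2.99-fold from day 5 to day 8 (1.5 ± 0.18, adjusted p = 0.000251), and with NDGA it was 3.51-fold below water at day 8 (-1.70 ± 0.18, adjusted p = 0.000186). ABA was above water at day 5 (0.99 ± 0.18, adjusted p = 0.0100) and not called at day 8 (0.13 ± 0.18, adjusted p = 0.725), and NDGA was below at day 5 (-0.87 ± 0.18, adjusted p = 0.0238). The ABA call was lost without replicate 1 of water or replicate 2 of ABA at day 5 (adjusted p = 0.110 and 0.105) and the NDGA call without any 1 of the 4 libraries compared (0.0617 to 0.205). The change of the difference between the days did not pass for ABA (-0.86 ± 0.26, adjusted p = 0.0905) or NDGA (-0.83 ± 0.26, adjusted p = 0.127).

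NIP1-1 comp96820_c0_seq4 held 1.14 and 2.30 RPKM at day 0, 3.39 and 5.58 at day 5 and 11.2 and 17.2 at day 8 in water. In ABA fruit it stood at 7.14 and 10.9 at day 5 and 11.5 and 12.7 at day 8, and under NDGA 1.17 and 2.01 at day 5 and 2.60 and 2.21 at day 8. NDGA at day 8 was 5.90-fold below water (-2.13 ± 0.33, adjusted p = 0.00353, or 0.0605 without replicate 2 of water at day 8). Its rise from day 5 to day 8 in water (1.47 ± 0.33, adjusted p = 0.0210) was lost without replicate 1 of day 5 (0.180) or replicate 2 of day 8 (0.189), under pseudocount 0.1 (0.0524) and with forms summed (0.0887). The 3 transcripts and a rarer NIP1-2 form, comp96820_c0_seq2, carry 1 assembly number, comp96820, so reads may be shared among them. The ripening markers were highest in water at day 8 and lower in all NDGA libraries than in the ABA libraries, and their part was not tested.

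**Figure D5:**
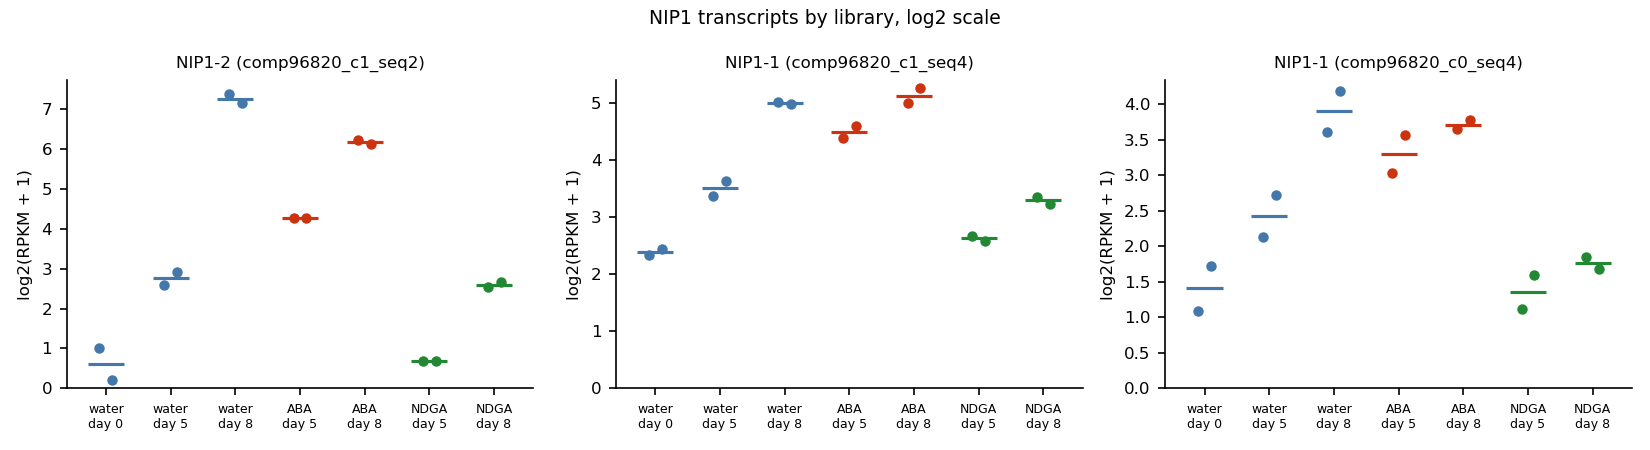
Log2(RPKM + 1) (vertical axes, log scale) of the 3 NIP1 transcripts named by the rule in the 7 groups (horizontal axes); each point is 1 of 2 libraries and each line the group mean. All 3 step upward over days 0, 5 and 8 in water, and both NDGA groups lie below the water group of the same day.

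The remaining NIPs were rare. NIP2-1 comp78172_c0_seq1, matched to the silicic acid channel of rice, held 0 to 4.03 RPKM, and NIP7-1 comp125634_c0_seq1 0 to 2.61 RPKM, and neither was called in any of the 7 comparisons. The 2 libraries of day 0 alone held 4.03 and 0.303 RPKM of NIP2-1. NIP6-1 comp103279_c0_seq21, matched to an Arabidopsis boric acid channel and the 1 reported of 44 rows of that name, is named outside the rule. It held 2.90 and 2.59 RPKM at day 0 and at most 1.76 later.

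Of the 13 SIPs, 4 were called in any of the 7 comparisons. SIP1-1 comp105396_c2_seq3, a 292-base transcript, held 27.3 and 23.2 RPKM at day 0, 17.4 and 27.0 at day 5 and 55.1 and 40.6 at day 8 in water. Under ABA the libraries held 38.5 and 27.6 at day 5 and 26.0 and 34.7 at day 8, and under NDGA 63.2 and 46.5 at day 5 and 43.4 and 45.8 at day 8. It rose from day 5 to day 8 in water (1.09 ± 0.24, adjusted p = 0.0196) and was above water with NDGA at day 5 (1.28 ± 0.24, adjusted p = 0.0128). Both calls were lost without replicate 1 of water at day 5 (adjusted p = 0.193 and 0.157), the first also without replicate 1 of day 8 (0.172) and with no filter on low values (0.0501), the second without replicate 1 of NDGA at day 5 (0.160).

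SIP2-1 comp103913_c0_seq2 rose 1.76-fold from day 0 to day 5 in water, from 7.60 and 5.45 to 11.2 and 11.7 RPKM (0.74 ± 0.19, adjusted p = 0.0222), a call lost without replicate 2 of day 0 (0.126) or either library of day 5 (0.0825 and 0.109). SIP1-2 comp105396_c0_seq1 held 5.63 to 21.2 RPKM and was not called. No pairwise SIP call named here remained in the fit of the compared groups alone, and of the NIP calls that fit kept day 8 against day 0 in water for NIP1-2 (adjusted p = 0.0357) and NIP1-1 comp96820_c1_seq4 (0.0332).

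Other transporters that bear on the same water and solute flows were counted beside the aquaporins, from lists of keywords. Of 125 proton and calcium pumps, 50 of them calcium pumps that the keyword for plasma membrane ATPases took in, 16 rose and 7 fell from day 0 to day 5 in water, 18.4% against the 12.9% of all tested, and 4 were higher and 17 lower with ABA at day 8, 16.8% against 13.3%. A vacuolar proton pump pyrophosphatase, comp103002_c0_seq1, of a kind that helps to acidify the vacuole, rose in water from 118 ± 9.08 RPKM at day 0 to 400.0 ± 9.96 at day 8 (1.75 ± 0.07, adjusted p = 5.10e-09). It was above water with ABA at day 5, at 433 ± 4.91 against 258 ± 1.89 (0.74 ± 0.07, adjusted p = 5.96e-05), and below it with NDGA at day 8, at 206 ± 4.84 (-0.96 ± 0.07, adjusted p = 1.30e-05). Another transcript of that name, comp105204_c0_seq3, fell in water from 162 ± 10.9 RPKM at day 0 to 101 ± 1.44 at day 8 (-0.68 ± 0.10, adjusted p = 0.000573). With ABA it was below water at day 5, at 57.4 ± 2.40 against 107 ± 2.60 (-0.88 ± 0.10, adjusted p = 0.000218), and at day 8, at 48.2 ± 4.02 (-1.06 ± 0.10, adjusted p = 1.10e-05).

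Of 80 potassium channels and transporters, 2 rose and 14 fell from day 0 to day 5, 20% against the 12.9% of all tested, and 3 were higher and 11 lower with ABA at day 8, 17.5% against 13.3%. Of 8 boron and silicon transporters, 5 fell from day 0 to day 5, where 7.90% of all tested did, and 3 rose from day 5 to day 8, where 2.89% did. Boron transporter 1 comp107468_c1_seq4 went from 57.1 ± 1.57 RPKM at day 0 to 3.55 ± 1.11 at day 5 (-3.70 ± 0.33, adjusted p = 7.26e-06) and 25.9 ± 2.25 at day 8 (2.59 ± 0.33, adjusted p = 0.000384).

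The 30 members not described in full, a few of them named in passing above, averaged 0.763 to 229 RPKM over the 14 libraries, and 18 of them were called in at least 1 of the 7 comparisons. They were 12 PIPs, of which PIP2-1 comp116248_c1_seq1 was the most abundant, 10 SIPs, 5 TIPs and 3 NIPs.

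The authors' deposited table of differentially expressed transcripts, which are sorted into 9 clusters, held 12 of the 61 aquaporins, 19.7%, against 4.19% of all tested transcripts. These shares were not matched for abundance either. In the authors' deposited table, PIP2-1 comp99920_c0_seq1 and PIP2-1 comp91144_c0_seq1 stood together in cluster 6, PIP2-2 comp114657_c1_seq1 and PIP2-1 comp107330_c1_seq1 in cluster 1, both PIP1-3 transcripts in cluster 7, and both NIP1-1 transcripts in cluster 8. NIP1-2 comp96820_c1_seq2 was not among the 12.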

How the data were processed

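The deposited table gave RPKM, computed by the authors over their own assembly, for 2 mRNA libraries in each of 7 groups, with transcript length in bases and the Swiss-Prot alignment score, both also deposited by the authors. The authors' cluster number (an other kind of value) was taken from their deposited list. The assembler and read counter are not stated in the labels. 8 lines without a transcript were not analysed.

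All values came out as whole reads within a tolerance of 0.1 (100% in each library), which gave the depths. Transcripts with at least 1 RPKM in 2 libraries were tested as log2(RPKM + 1) with limma 3.58.1 in R 4.3.3, with 1 fit for the 7 groups (7 residual and 6.05 prior degrees of freedom), 9 comparisons and Benjamini-Hochberg adjustment over all tested transcripts. The fit was also run on simulated data, in which all transcripts had the same relative spread beyond counting error and a single group held changes. That run does not check the spread shared by the 7 groups of these data. A fold is the ratio of mean RPKM, and a log2 change is on the log2(RPKM + 1) scale, which understates low transcripts. Forms of a component may be alleles, copies of the octaploid genome or splice forms.

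Members described in full were the most abundant form per component (up to 4 PIP1, 4 PIP2, 6 TIP, 4 NIP and 3 SIP), the 2 higher and 2 lower with the smallest adjusted p per pairwise comparison at 5 RPKM or more, and all TIP3 members. From each companion list the 1 higher and 1 lower member by the same rule qualified. Members and lists were chosen with earlier results of these data known. Alternatives were pseudocount 0.1, no filter, 5 RPKM, quantile normalization, a replicate block, the compared groups alone, summed forms, voom on recovered reads, and each library left out.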

Additional observations from a re-analysis of the deposited data

Results flagged for a closer look

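The difference between ABA and water changed from day 5 to day 8, by the limma test of that change itself, for 17 of the 61 aquaporins. Among those described in full, the difference moved up for TIP2-1 comp100164_c1_seq1 by 1.60 (log2), for PIP2-1 comp99920_c0_seq1 by 1.26, for PIP2-7 comp119988_c1_seq2 by 1.11, for TIP2-1 comp100164_c0_seq13 by 0.83, for PIP2-7 comp103795_c1_seq1 by 0.79 and for PIP1-3 comp113039_c0_seq6 by 0.78. It moved by 0.45 for PIP2-1 comp99476_c0_seq1, which no longer passed without any 1 of 6 of the 8 libraries compared (adjusted p up to 0.101). The change was -2.65 for PIP2-5 comp101242_c0_seq4, -2.60 for NIP1-2 comp96820_c1_seq2, -1.49 for PIP2-1 comp101242_c1_seq1, -1.23 for PIP2-1 comp107330_c1_seq1 and -0.73 for PIP2-2 comp114657_c1_seq1. With the compared groups alone the changes for PIP2-1 comp107330_c1_seq1, PIP2-1 comp99476_c0_seq1 and TIP2-1 comp100164_c0_seq13 did not pass (adjusted p = 0.0693, 0.0748 and 0.0510). In the plain voom fit those for PIP2-1 comp101242_c1_seq1 and comp99476_c0_seq1 did not (0.985 and 0.0770), and under pseudocount 0.1 that for NIP1-2 did not (0.0546). The median of all tested transcripts was -0.20 on the same measure and -0.01 after quantile normalization, under which the change for PIP2-7 comp103795_c1_seq1 came to 0.52 (adjusted p = 0.0669).

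For NDGA the same test passed for 10 aquaporins. The difference moved up by 1.73 for TIP1-1 comp103836_c0_seq2, by 0.90 for PIP1-3 comp113039_c0_seq6 and by 0.88 for PIP2-1 comp99920_c0_seq1. It changed by -2.59 for NIP1-2 comp96820_c1_seq2, -1.37 for PIP2-5 comp101242_c0_seq4, -0.60 for PIP2-7 comp119988_c1_seq2 and -0.39 for PIP2-1 comp101242_c1_seq1. With the forms of its component summed, the change for TIP1-1 comp103836_c0_seq2 came to 0.13 (adjusted p = 0.859). That for PIP2-1 comp101242_c1_seq1 did not pass in the plain voom fit (0.965), and that for NIP1-2 did not pass there (0.251), with capped weights (0.183) or under pseudocount 0.1 (0.251).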

How the results depend on the processing

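Of the 93 pairwise calls on the 28 aquaporins described in full, 93 kept their side of the threshold under quantile normalization, 93 with a limit of 5 RPKM and 93 with a replicate block, 92 in the voom fit with capped weights, 88 with no filter, 87 with pseudocount 0.1, 85 with forms summed and 83 in the plain voom fit. Fitted with the compared groups alone, 18 remained, and the counts of aquaporins called came to 7, 2 and 5 in water (day 5 against 0, day 8 against 5, day 8 against 0), 0 and 7 for ABA at days 5 and 8, and 0 and 0 for NDGA. That fit has 2 residual degrees of freedom by construction. For ABA at day 5 the plain voom fit called 14.

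Without 1 library, the counts ran from 26 to 30, 19 to 29 and 21 to 27 in water, 7 to 10 and 17 to 24 for ABA, 3 to 10 and 7 to 14 for NDGA, and 14 to 17 and 8 to 10 for the change of the ABA and NDGA differences between days. Replicate 2 of water at day 8 gave the lowest count of the day 8 against day 5 comparison and of NDGA at day 8 (19 and 7), and replicate 1 of water or of NDGA at day 5 gave 5 and 3 for NDGA at day 5.

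Summing the forms of a component turned the sign for TIP1-1 comp103836_c0_seq2 and TIP1-2 comp103836_c0_seq1 (ABA at day 8, both -0.12), PIP2-5 comp101242_c0_seq4 (water day 8 against 5, -0.12) and PIP1-2 comp113039_c0_seq7 (water day 8 against 5, -0.76; ABA at day 8, 0.80; NDGA at days 5 and 8, -0.25 and 0.55; change between days 0.81). Each sum holds other forms by construction.

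Same-numbered libraries shared a small part of their spread. Their deviations correlated at 0.0503 to 0.101, above 0 in all 21 pairs of groups and over 0.1 in 1 of them. With the replicate block, 2795 of all tested transcripts were called for ABA at day 5, against 2146 without it. The count of aquaporins there was 14, against 9. Members near 1 RPKM rest on few reads, which limits what can be seen in them, and the companion lists were not recomputed under the alternatives.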
